A study of Mus musculus with 32 samples.

Results

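Contacts between the RNA of one gene and the DNA of another gene nearby were examined in 15 RADICL-seq libraries from 2 mouse cell lines. RADICL-seq ligates RNA to adjacent DNA in nuclei of fixed cells through a bridge adapter, so that every sequenced molecule holds an RNA tag and a DNA tag. A contact was counted when both tags lay on the same chromosome, more than 100 kb and at most 1000 kb apart, and the DNA tag lay within an annotated gene that differed from the RNA's gene on every line of that interaction. Among listed interactions, the members were thus chosen by position and annotation. To be listed at all, a combination had to pass a test on its numbers, as described below. Of 25231081 listed interactions, 4165653 met the rule. They formed 129654 pairs of an RNA gene and a contacted gene, from 8654 RNA genes and 30910 contacted genes. A DNA tag under several overlapping genes counted once in the shares below and once for each gene in the pairs.

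The mESC libraries came from R08, a male embryonic stem cell line, and the mOPC libraries from Oli-neu, a neural line derived from oligodendrocyte progenitor cells. Cells were fixed with 1% formaldehyde in 3 libraries of each line (mESC 1FA and mOPC 1FA), and with 2% in 3 more of mESC (mESC 2FA), which also had a longer DNase I digestion. Cells of 2 mESC libraries were kept in 5 µg per ml of actinomycin D during the last 4 h before 1% fixation (mESC ActD4). A further 2 libraries of each line were non-protein-mediated (mESC NPM and mOPC NPM), which here means that after 1% fixation the protein was removed with proteinase K and the crosslinks undone, and the RNA was joined to the adapter only then. Replicates were batches of cells of different passage from 1 line per cell type, so they show the spread within a line only. The summed level of 12 mESC marker genes among RNA tags was 2706 per 1000000 interactions in mESC 1FA and 5.91 in mOPC 1FA. All 12 were higher in mESC 1FA and 9 of them were listed at 0 in mOPC 1FA. For 12 mOPC markers the sums were 30.6 and 13083. Of these, 9 were higher in mOPC 1FA, led by Lhfpl3 (6197) and Cntn1 (4610), Pdgfra was higher in mESC 1FA (16.8 against 2.38), and Nkx2-2 and Sox8 were listed at 0 in both. The 5 neuron markers summed to 45.4 in mESC 1FA and 385 in mOPC 1FA. Syt1 made up 374 of the latter, while 3 of the 5 were higher in mESC 1FA and listed at 0 in mOPC 1FA. The 4 astrocyte markers summed to 118 and 46.9, with 2 higher in mESC 1FA and 2 listed at 0 in both. The 5 markers of endoderm or fibroblast-like cells summed to 31.7 in mESC 1FA and 0 in mOPC 1FA. Among them Gata6 ranged from 7.50 to 43.4 over the mESC 1FA libraries and was listed at 0 in mESC ActD4.

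Most RNA on chromatin is nascent, held at its gene by the polymerase that is making it. Because chromatin is folded, this RNA can lie close to the DNA of genes that are far away along the chromosome, and proximity ligation records such closeness whether or not the RNA acts there. Some long noncoding RNAs do act on neighbouring genes, among them Kcnq1ot1 in an imprinted cluster and Xist and its antisense partner Tsix on the X chromosome. Actinomycin D blocks elongation by RNA polymerase, and formaldehyde links RNA and DNA mainly through the proteins bound to both.

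The contacted DNA was searched for points that held many of the contacts of a pair. In the leading pairs of the 1FA groups the densest 200-base windows held 7 to 13 contacts, or 0.336% to 0.937% of the contacts of the pair. The mean per 200-base window of the contacted gene ran from 0.298 to 2.59 over these pairs. No window thus held a large part of a pair, but whether its contacts exceed the mean was not tested. The windows of 3 of these pairs are shown as examples of contacted DNA, on the forward strand of GRCm38.p6 (mm10), with CpG dinucleotides in capitals. The first lies at chr7:112472820-112473019, in an intron of Parva 45.4 kb from its start, and held 11 of the 2129 contacts of Tead1 RNA with Parva in mESC 1FA. The second, chr5:23165244-23165443, is in an intron of Lhfpl3, 419 kb from its start, and held 13 of 3874 contacts of 5031425E22Rik RNA in mOPC 1FA. The third, chr15:91545174-91545373, is in an intron of Slc2a13, 28 kb from its start, and held 13 of 1388 contacts of Cntn1 RNA in mOPC 1FA. No exon of GENCODE M21 overlapped the 3 windows.
Parva window: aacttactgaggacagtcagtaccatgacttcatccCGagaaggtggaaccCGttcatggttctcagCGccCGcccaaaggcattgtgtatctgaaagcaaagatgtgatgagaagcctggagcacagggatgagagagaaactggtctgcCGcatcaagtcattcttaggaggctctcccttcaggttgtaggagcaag
Lhfpl3 window: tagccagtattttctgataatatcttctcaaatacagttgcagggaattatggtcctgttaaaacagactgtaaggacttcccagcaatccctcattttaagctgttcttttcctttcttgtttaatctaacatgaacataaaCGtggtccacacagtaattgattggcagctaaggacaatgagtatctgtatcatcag
Slc2a13 window: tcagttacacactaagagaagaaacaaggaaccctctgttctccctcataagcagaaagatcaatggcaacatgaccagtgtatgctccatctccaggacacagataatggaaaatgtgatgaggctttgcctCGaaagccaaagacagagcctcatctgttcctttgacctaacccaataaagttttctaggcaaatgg
The 3 windows had a GC content of 51%, 37% and 43.5% and held 5, 1 and 1 CpG.

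Contacts were denser at the starts of contacted genes than inside them, so 2 promoters of mOPC 1FA, where single starts held more contacts than in mESC 1FA, are shown too. Starts were not examined on every chromosome, so the rankings here are not genome-wide. Among protein-coding genes of 50 kb or more whose starts were examined, Ppp1cb, a catalytic subunit of protein phosphatase 1, had the most contacts within 2 kb of its start in mOPC 1FA (36, 33 and 49 in the 3 libraries). These were 118 of its 1004 contacts (11.8%), while this region takes up 3.41% of the gene. Rbks, which encodes ribokinase, ranked joint second with Kmt2e, with 24, 23 and 22 contacts, or 69 of 1779 (3.88% in 2.73% of its length). Ppp1cb, Rbks and Kmt2e all lie on chromosome 5. That chromosome took a mean of 10.1% of the contacts per mOPC 1FA library, against 6.56% per mESC 1FA library. Its part in the ranking was not tested. The promoters were taken from RefSeq (GRCm38.p6, 250 bases before to 50 after the start, in the direction of the gene). They lie at chr5:32458720-32459019 on the forward strand and chr5:31697561-31697860 on the reverse strand. Contacts were counted only inside the contacted gene, so promoter bases before the annotated gene could hold none of them. The annotated Ppp1cb gene, for example, starts at chr5:32458843. The base composition below therefore describes the promoters and not the contacted DNA alone. Capitals mark GC boxes, GGGCGG or its complement CCGCCC.
Ppp1cb promoter: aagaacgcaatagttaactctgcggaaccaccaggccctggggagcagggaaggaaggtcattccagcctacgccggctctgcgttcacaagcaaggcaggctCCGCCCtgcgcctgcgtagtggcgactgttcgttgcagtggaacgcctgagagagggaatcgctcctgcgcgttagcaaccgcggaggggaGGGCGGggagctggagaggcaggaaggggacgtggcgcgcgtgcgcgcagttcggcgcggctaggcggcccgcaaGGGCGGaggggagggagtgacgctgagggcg
Rbks promoter: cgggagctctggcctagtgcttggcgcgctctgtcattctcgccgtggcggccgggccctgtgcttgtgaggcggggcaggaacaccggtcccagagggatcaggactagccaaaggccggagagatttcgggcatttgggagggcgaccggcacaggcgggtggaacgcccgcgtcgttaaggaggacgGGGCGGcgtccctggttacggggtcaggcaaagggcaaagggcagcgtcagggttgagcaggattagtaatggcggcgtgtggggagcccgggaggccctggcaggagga
The first held 3 GC boxes and 31 CpG and the second 1 and 26, both with a GC content of 67.3%. Over 32851 RefSeq promoters of the same length, 35.7% held a GC box on either strand, and the median GC content was 52.7% with 7 CpG. In mESC 1FA, with the same genes ranked, Nfatc3 had the most contacts near its start (38 of 475) and Pdia5 33 of 431. Their promoters held no GC box, with 7 and 15 CpG and a GC content of 48.7% and 62%. The Rbks promoter spans the start of Babam2 (chr5:31697684), which encodes a subunit of the BRCA1-A and BRISC complexes and runs the other way. Babam2 RNA made 41 of the 69 contacts at the start of Rbks and 63 of the 118 at the start of Ppp1cb. DNA tags inside Babam2 count as its own gene, so the 41 lay outside it. Rbks and Ppp1cb thus had the same leading RNA partner at their starts. In all, 14 RNA genes contacted Ppp1cb and 12 contacted Rbks.

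The share of listed interactions that contacted another gene within 1 Mb was highest in mESC 1FA and mESC 2FA and close to 0 in the NPM libraries. It was 22.57%, 20.93% and 21.69% in mESC 1FA (mean 21.7% ± 0.823 SD, n = 3) and 21.20%, 19.47% and 19.19% in mESC 2FA (20% ± 1.09). In mESC ActD4 it was 11.56% and 11.75%. In mOPC 1FA it was 15.31%, 16.68% and 15.75% (15.9% ± 0.699), below every mESC 1FA library. In mESC NPM 3 contacts were listed in each library, of 434610 and 608994 interactions. In mOPC NPM 188 of 1272653 and 171 of 1190366 were listed, or 0.01477% and 0.01437%.

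**Figure D1:**
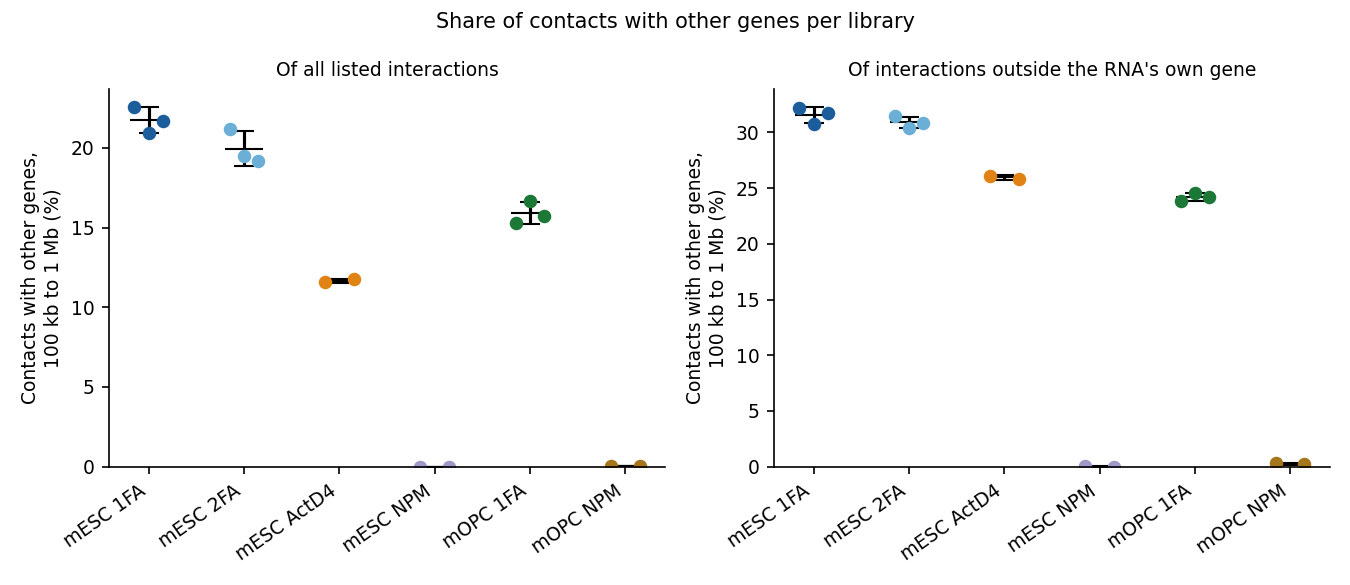
Share of contacts with other genes at 100 kb to 1 Mb in each library (points) with the group mean and SD (bars), in percent of all listed interactions (left) and of interactions outside the RNA's own gene (right). The mESC 1FA libraries sit between 20.93% and 22.57% of all interactions, the mOPC 1FA libraries between 15.31% and 16.68%, and the NPM libraries near 0.

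The mESC 1FA and mOPC 1FA shares were separate, with mOPC 1FA 5.82 percentage points lower (two-sided exact permutation test over libraries, p = 0.100, and 3 libraries against 3 can give no smaller one). The difference of 1.77 points between mESC 1FA and mESC 2FA lay within the spread of the libraries (exact p = 0.20). mESC ActD4 lay 10.1 points below mESC 1FA with no overlap (exact p = 0.100, again the lowest attainable). The libraries of mESC ActD4 were the smallest of these groups, with 418781 and 251802 listed interactions against 2441619 to 2832717 in mESC 1FA. When mESC 1FA was thinned to the same totals and only pairs of an RNA gene and a 25-kb bin that still held 5 interactions were kept, its share was 13.3% ± 0.622. The gap to the 11.7% ± 0.133 of mESC ActD4 was then much smaller. NPM lay 21.7 points below 1FA in mESC and 15.9 points below in mOPC (exact p = 0.100 for each), and NPM was 18.8 points lower over both lines (exact p = 0.0100, which is the least these libraries can give; 0.0800 after adjustment over 8 comparisons). After thinning, 1FA still held 15.9% in mESC and 14.6% in mOPC at the totals of the NPM libraries. Between the cell types over 1FA and NPM together the shares differed by 2.90 points (exact p = 0.100), and between mESC NPM and mOPC NPM by 0.0140 points (exact p = 0.333, the lowest attainable with 2 libraries each).

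Of interactions outside the RNA's own gene, contacts with other genes within 1 Mb made up 31.6% ± 0.707 in mESC 1FA, 30.9% ± 0.517 in mESC 2FA, 26.0% ± 0.189 in mESC ActD4 and 24.2% ± 0.395 in mOPC 1FA. In NPM they made up 0.0128% ± 0.00521 in mESC and 0.266% ± 0.0862 in mOPC. Within the same range of distances, 54.5% of the interactions of mESC 1FA fell in another gene, 8.52% in the RNA's own gene and the rest outside genes. In mESC ActD4 50.9% fell in another gene and 20.6% in the RNA's own gene, and in mOPC 1FA 49.9% and 16.2%. In the NPM libraries 95% of interactions at 100 kb to 1 Mb lay in the RNA's own gene in mESC and 86.0% in mOPC. Most NPM interactions in this window thus lay along the RNA's own gene. In these bulk libraries, fewer cells with a contact and fewer contacts per cell cannot be told apart.

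In the groups without protein digestion, contacts thinned out with distance. The median distance was 309 kb in mESC 1FA, 303 kb in mESC 2FA, 241 kb in mESC ActD4 and 330.4 kb in mOPC 1FA. Contacts beyond 300 kb made up 51.6% ± 0.486 in mESC 1FA, 54.7% ± 0.488 in mOPC 1FA and 37.9% ± 0.0286 in mESC ActD4. ActD4 libraries were lower by 13.6 points and mOPC 1FA libraries higher by 3.18 points than mESC 1FA, without overlap (exact p = 0.100 for each). The smaller listed totals of ActD4 move with its shorter distances, and their part was not tested for this share. Contacts downstream of the RNA tag in the direction of transcription made up 52.3% in mESC 1FA, 52.5% in mESC 2FA, 53.6% in mESC ActD4 and 52.4% in mOPC 1FA, so both directions were nearly even. The RNA tag lay in an intron in 87.1% of contacts in mESC 1FA and 89.0% in mOPC 1FA, against 81.2% and 77.4% of all listed interactions.

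**Figure D2:**
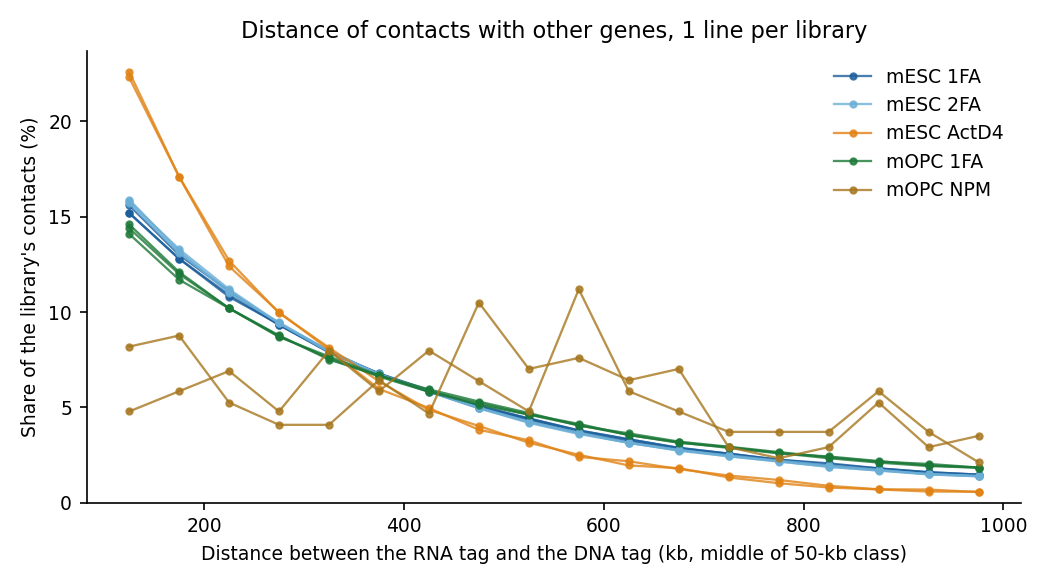
Share of a library's contacts with other genes (in percent) in each 50-kb class of the distance between RNA tag and DNA tag (in kb), 1 line per library. mESC ActD4 falls most steeply, the fixed mESC and mOPC groups lie close together, and the mOPC NPM libraries, with 188 and 171 contacts, do not fall with distance (mESC NPM, with 3 contacts per library, is not drawn).

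Long noncoding RNAs made few of the contacts in mESC and more in mOPC. They made 1.88%, 1.74% and 1.68% of contacts in mESC 1FA and 4.75%, 4.87% and 4.97% in mOPC 1FA, a difference of 3.10 points without overlap (exact p = 0.100). In both groups this was below their share of all interactions, 4.06% and 17.0%. In mESC ActD4 they made 0.924% ± 0.0110. The contacts came from many RNA genes. The leading 100 RNA genes made 15.1% of contacts in mESC 1FA and 20.8% in mOPC 1FA, and 684 and 497 RNA genes were needed to reach 50%. In mESC ActD4 the leading 100 of 2150 RNA genes made 34.9%.

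Most contacted DNA lay in genes that were themselves transcribed. In mESC 1FA 87.7% of contacts fell in protein-coding genes, 10.9% in long noncoding RNA genes, and 84.4% in genes whose own RNA was listed. The contacted gene ran on the same strand as the RNA gene in 49.8% of contacts. Where the contacted gene had listed RNA, 34.5% of 62251 pairs were also listed in the other direction, RNA of the second gene on DNA of the first. Among the 7224 such pairs with 50 or more contacts over the 3 libraries this share was 60.8%, and in mOPC 1FA it was 71.8% of 3618.

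The density of contacts along the contacted gene was highest at its start and rose again at its end. In contacted genes of 50 kb or more, the first 2 kb held 1.88, 2.18 and 1.76 times as many contacts per kb as the inside of the gene in mESC 1FA. The ratio was 2.08, 2.49 and 2.17 in mESC 2FA, 2.49 and 2.64 in mESC ActD4, and 2.24, 2.20 and 2.78 in mOPC 1FA. The last 2 kb held 1.43 to 1.79 times as many over these 11 libraries. In mOPC 1FA the ratio at the start was 2.43, 2.39 and 3.08 for genes with listed RNA and 1.44, 1.40 and 1.48 for genes without. The gap was smaller in mESC 1FA, with 1.93, 2.23 and 1.80 against 1.76, 2.12 and 1.73. For mESC 2FA the ratios were 2.13, 2.59 and 2.22 against 1.88, 2.00 and 1.98. In mESC ActD4 the order was the other way round, 2.3 and 2.53 with listed RNA and 3.19 and 3.01 without. Over all contacts, those within 2 kb of an annotated start made up 8.97% ± 0.711 in mESC 1FA, 10.1% ± 0.931 in mOPC 1FA and 12% ± 0.233 in mESC ActD4. The groups mESC 1FA and mESC ActD4 did not overlap (difference 2.99 points, exact permutation p = 0.100), and the groups mESC 1FA and mOPC 1FA did (1.09 points, exact p = 0.20).

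**Figure D3:**
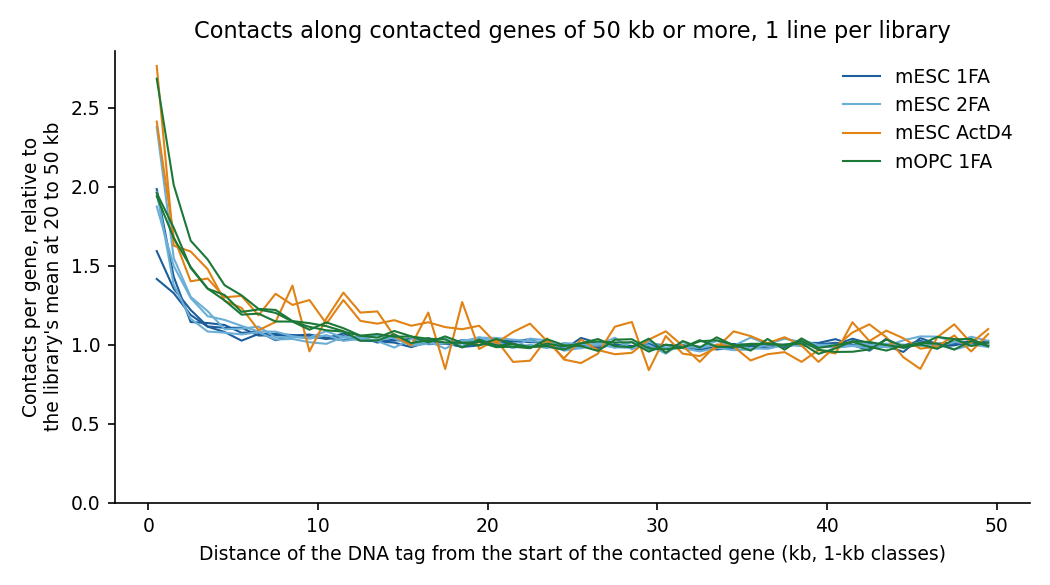
Contacts per gene in 1-kb classes of the distance from the start of the contacted gene (in kb), relative to the library's own mean at 20 to 50 kb (ratio), for contacted genes of 50 kb or more, 1 line per library of the 4 groups without protein digestion. Every line is highest next to the start and levels off near 1.

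In mESC 1FA and mOPC 1FA most pairs held few contacts, and a small part of the pairs held over 50% of them. In mESC 1FA 99188 pairs joined 7329 RNA genes with 27618 contacted genes, at a median of 7 contacts per pair over the 3 libraries. The 8021 pairs with 50 or more over the libraries of the group held 53.5% of contacts. In mOPC 1FA 62980 pairs joined 5886 RNA genes with 23036 contacted genes, and 4325 pairs of 50 or more held 50.8%. In mESC ActD4 11252 pairs were listed and 134 of them held 13.9%. The pairs recurred between libraries, and the 58752 pairs found in every mESC 1FA library (59.2%) held 94.3% of its contacts. The replicates of a group share 1 list of significant combinations, so that their spread understates the error.

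The leading pairs mostly joined near neighbours. Pairs of overlapping genes were left out of this order. With them, Ankrd11 to the overlapping Gm20388 would have come before every other pair named here in mESC 1FA, with 2434, 2271 and 2382 contacts, against 738 and 491 in mESC ActD4 and 676, 729 and 676 in mOPC 1FA. In mESC 1FA the RNA of Smyd3, a lysine methyltransferase, made 1162, 887 and 1015 contacts with Kif26b, a kinesin-like gene at chr1:178529125-178939200 that lies 12.8 kb away. The numbers were 1073, 766 and 906 in mESC 2FA, 106 and 58 in mESC ActD4, 353, 343 and 310 in mOPC 1FA and 0 in all NPM libraries. Every mESC 1FA and mESC 2FA library thus exceeded every mOPC library for this pair. The reverse contacts, Kif26b RNA on Smyd3, were listed in mOPC 1FA only (25, 33 and 20).

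RNA of Kat6b, a histone acetyltransferase, made 796, 686 and 1008 contacts in mESC 1FA with Adk, the adenosine kinase gene at chr14:21052574-21448568. In mOPC 1FA it made 144, 149 and 152. RNA of Tead1, a transcription factor of the Hippo pathway, made 684, 711 and 734 with Parva, an actin-binding protein gene at chr7:112427505-112591692 and 87.6 kb away, whose densest window is printed above. In mOPC 1FA this pair had 48, 64 and 53. The pair is nearly one-way, as Parva RNA on Tead1 was listed 7, 8 and 16 times in mESC 1FA.

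RNA of Ntn1, the guidance cue netrin 1, made 768, 553 and 666 contacts with the SNARE gene Stx8 (chr11:67966193-68207148, 2.22 kb away), against 121, 140 and 135 in mOPC 1FA. RNA of Ranbp17, of the importin family, made 772, 495 and 646 with Kcnip1 (chr11:33629339-33993152), a potassium channel partner, against 80, 97 and 91. Both pairs had over 400 contacts in every mESC 1FA and mESC 2FA library and under 150 in every mOPC library. In mESC ActD4 they had 58 and 30, and 14 and 5. The same pairs of genes were listed at 0 in all NPM libraries.

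In mOPC 1FA the leading pair of genes that do not overlap lay on chromosome 5. RNA of 5031425E22Rik, a long intergenic noncoding RNA, made 1218, 1150 and 1506 contacts with Lhfpl3 (chr5:22746059-23275597), a tetraspan gene used as a marker of these cells. In mESC 1FA it made 17, 7 and 11, so that the groups lay far apart (log2 change 7.55 with an SE of 0.293, limma adjusted p = 4.37e-07). Lhfpl3 RNA in turn was found on 5031425E22Rik 139, 95 and 113 times in mOPC 1FA and was listed at 0 in mESC.

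RNA of 2610035D17Rik made 1071, 1305 and 949 contacts with the zinc transporter gene Slc39a11 (chr11:113244853-113650079) in mOPC 1FA and 139, 87 and 72 in mESC 1FA. RNA of Npas3, a neural transcription factor, made 507, 568 and 522 with Akap6 (chr12:52699383-53155599), a kinase anchoring protein gene. RNA of the adhesion molecule Cntn1 made 446, 494 and 448 with Slc2a13 (chr15:91267696-91573261), a myo-inositol transporter gene 478 kb away. The pairs of Npas3 and Cntn1 were listed at 0 in every mESC library. RNA of Sh3d19 and the gene Gm37240 had 731, 767 and 572 in mOPC 1FA and 451, 389 and 520 in mESC 1FA, the smallest gap between the cell types among the 5.

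**Figure D4:**
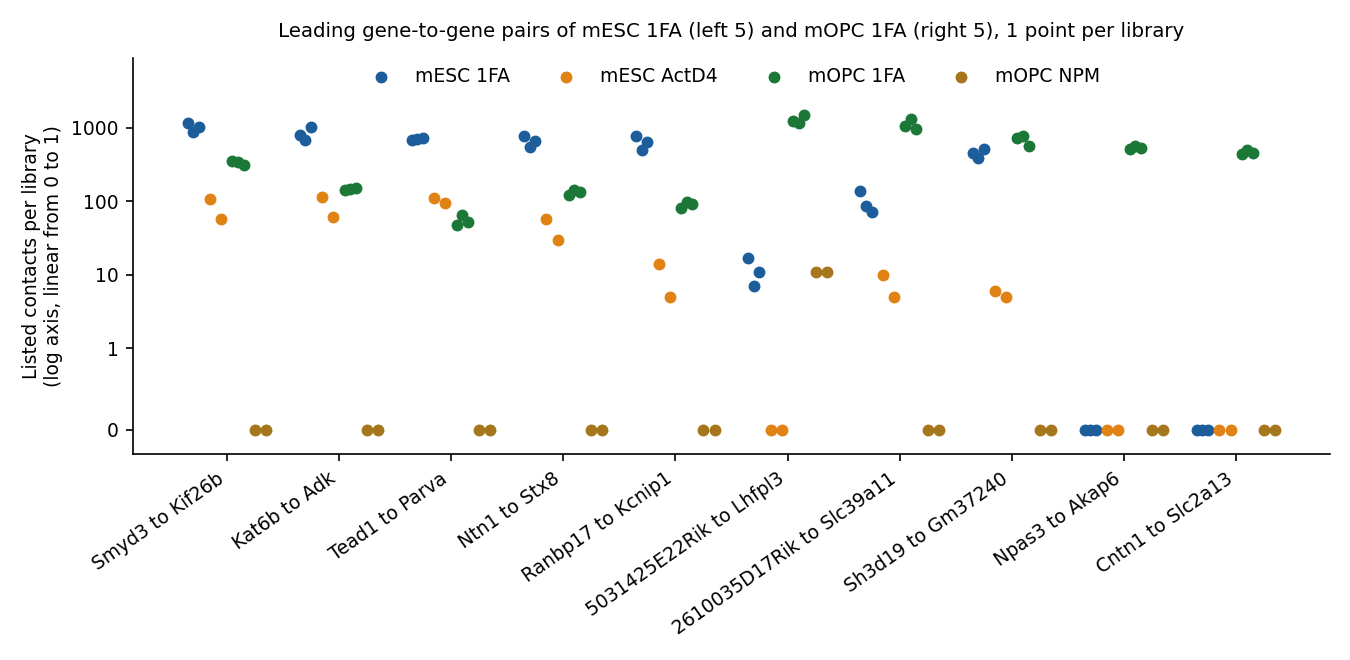
Listed contacts per library (log axis, linear from 0 to 1) for the 5 leading pairs of mESC 1FA (left) and of mOPC 1FA (right), pairs of overlapping genes left out, with 1 point per library of mESC 1FA, mESC ActD4, mOPC 1FA and mOPC NPM. Smyd3 to Kif26b ranges from 887 to 1162 in mESC 1FA and 5031425E22Rik to Lhfpl3 from 1150 to 1506 in mOPC 1FA, and the mOPC NPM points lie at 0 except for 11 and 11 in the latter pair.

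Measured by RNA gene, Tead1 (2399 contacts per library on average), Ankrd11 (2362, as many as with the overlapping Gm20388 alone), Ntn1 (2001), Jarid2 (1948) and Kat6b (1686) led in mESC 1FA. Ankrd11 is a chromatin regulator and Jarid2 a cofactor of Polycomb repressive complex 2. In mOPC 1FA Babam2 (2557), 5031425E22Rik (2538), 2610035D17Rik (2063), Cntn1 (1705) and Lhfpl3 (1453) led. No RNA gene was in both lists.

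Measured by contacted gene, the widest range of RNA partners in mESC 1FA belonged to Gm20388, with 41 RNA genes. This annotation spans 4435 kb on chromosome 8 and overlaps 149 other genes, so it collects contacts that also count for those genes. It was followed by Gm26786 (21), Smpd3 (19), Agrp (17) and Hgs (17). In mOPC 1FA these were Dpysl5 (17), Gm20388 (17), Zfp512 (16), Babam2 (15) and Gpn1 (15), and apart from Gm20388 they lie on chromosome 5. Chromosome 5 held 10.12%, 10.12% and 9.952% of the contacts of mOPC 1FA and 6.414% to 6.670% of those of mESC 1FA. Its share of all interactions differed in the same way, 11.1% against 6.05%.

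The groups shared part of their pairs. mESC 1FA and mOPC 1FA had 43370 pairs in common, 43.7% of those of mESC 1FA and 68.9% of those of mOPC 1FA. Of pairs with 50 or more contacts over a group's libraries they shared 2324, or 29% and 53.7%. mESC 1FA and mESC 2FA shared 68611 pairs (69.2% and 83.7%), and 5884 of 50 or more (73.4% and 95.3%). Of the pairs of mESC ActD4, 10917 (97.0%) were also in mESC 1FA.

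Between the cell types, pairs were called in both directions. Of 27284 pairs tested by limma on log2 CPM (contacts per 1000000 listed interactions), 6601 (24.2%) were higher and 10851 (39.8%) lower in mOPC 1FA than in mESC 1FA at an adjusted p under 0.05. Over all 74191 combinations of RNA gene, contacted gene and distance class, 35.2% were higher and 35.1% lower. The median log2 fold change was -0.46 over the pairs and -0.03 over all combinations. With scaling to the library total in place of TMM the medians were -0.86 and -0.44, and 5317 pairs were higher and 12982 lower. A pair listed at 0 throughout one group passed the minimum through the other group alone, so that the filter set its direction. This held for 2243 pairs at 0 in mESC 1FA and 6019 at 0 in mOPC 1FA. Among the 19021 pairs listed in both groups, 22.9% were higher and 25.4% lower (median -0.11). Listed in both means at least 1 contact in each group, here and below. Some of these pairs still passed the minimum through 1 group alone, so the set is not free of the filter. Of pairs less than 100 kb apart 23.9% were higher and 37.2% lower, and of pairs 300 to 1000 kb apart 26.4% and 41.6%. Pairs at 0 in mOPC 1FA made up 15.3% of the first class and 27.4% of the second. Among pairs listed in both groups lower calls went the other way, from 28.1% to 23.1%, and the difference was not tested.

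The pairs that rose most in mOPC 1FA by the naming rule were listed at 0 in every mESC 1FA library. Besides Npas3 to Akap6 and Cntn1 to Slc2a13 they were Zeb2 to Gtdc1 (459, 391 and 402 in mOPC 1FA; Zeb2 is a transcription factor) and both directions of Lhfpl3 with 6030443J06Rik, which overlaps it (623, 577 and 618 for 6030443J06Rik RNA). The pairs that fell most were Piezo1 to the overlapping Gm20388 (504, 495 and 529 in mESC 1FA), D030068K23Rik to the transcription factor gene Zfhx3 (386, 413 and 454), Gli2 to Clasp1 (368, 277 and 348) and Smad7 to Dym (235, 254 and 308). Gli2 is an effector of Hedgehog signalling and Smad7 an inhibitor of TGF-β signalling. These were listed at 0 in mOPC 1FA. The filter set the direction of these 9 pairs, so no p is given for them. Plekha7 to Sox6 followed with 663, 333 and 558 against 0, 2 and 0, and it too passed through mESC 1FA alone. In most of these pairs the RNA itself was nearly absent from the other cell type. Cntn1 and Lhfpl3 RNA were listed at 0 in mESC 1FA, and Piezo1, D030068K23Rik and Gli2 RNA at 0 in mOPC 1FA.

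RNA of pluripotency genes made fewer contacts in mOPC 1FA in most pairs tested. Of 141 tested pairs whose RNA gene was in the pluripotency list, 135 were lower in mOPC 1FA and 0 higher, against 39.8% and 24.2% of all pairs, with a median log2 fold change of -4.31 (all pairs -0.46). Of these, 91 were listed at 0 in mOPC 1FA, where the filter set the direction, and of the 50 listed in both groups 44 were lower. The 50 include Jarid2 to Atxn1 and Tet1 to Stox1, which stayed under 5 in every mOPC 1FA library and passed through mESC 1FA alone. The number of such pairs was not counted. As contacted genes the same list had 7 pairs higher and 17 lower of 37, with a median of -0.81. Their 64.9% called is near the 64.0% of all pairs and is not a result about the list. Medians over lists include pairs listed at 0 in one group, whose fold depends on the prior count and is no bound. Some genes stand in more than 1 list. Pairs with the same RNA gene share its level and are not independent. Jarid2 alone contacted 34 genes in mESC 1FA. The number of RNA genes behind the pairs of each list was not counted. RNA of Jarid2 made 288, 265 and 348 contacts with Dtnbp1 in mESC 1FA and 30, 34 and 19 in mOPC 1FA (log2 change -2.69 with an SE of 0.237, limma adjusted p = 3.22e-05). With Atxn1 it made 247, 216 and 262 and 3, 4 and 2. RNA of the nuclear receptor Esrrb made 337, 206 and 232 contacts with Ttll5 and 159, 124 and 121 with Ift43, and RNA of Tfcp2l1, a transcription factor of naive pluripotency, 174, 117 and 109 with Clasp1. These 3 pairs were listed at 0 in mOPC 1FA. Tet1, a 5-methylcytosine dioxygenase, to Stox1 had 94, 124 and 136 against 1, 0 and 0.

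For RNA of oligodendrocyte progenitor genes the order was the reverse. Of 145 pairs with their RNA, 120 were higher in mOPC 1FA and 6 lower (median 5.63), against 24.2% and 39.8% of all pairs (median -0.46). Of these, 105 were listed at 0 in mESC 1FA, where the filter set the direction, and of the 38 listed in both groups 15 were higher and 4 lower. Of 72 pairs with their DNA, 35 were higher and 22 lower (median 0.68), 79.2% called against 64.0% of all pairs. Of these 18 were at 0 in mESC 1FA and 13 in mOPC 1FA, and of the 41 listed in both groups 17 were higher and 9 lower. Cntn1 RNA made 421, 440 and 483 contacts in mOPC 1FA with Pdzrn4 and 376, 354 and 427 with the kinase gene Lrrk2. RNA of tenascin R, Tnr, made 287, 265 and 261 with Rabgap1l. Lhfpl3 RNA made 369, 431 and 320 with Reln, which encodes reelin. These 4 pairs were listed at 0 in mESC 1FA.

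Among pairs of imprinted clusters, calls were about as frequent as among all pairs. Of 160 pairs with an imprinted-cluster gene on either side, 30 were higher and 68 lower in mOPC 1FA, 61.3% called against 64.0% of all pairs (median -0.58 against -0.46). This share is not a result about the list. RNA of Kcnq1ot1, which silences its neighbours on the paternal chromosome, made 24, 21 and 25 contacts with Nap1l4 in mESC 1FA and 55, 64 and 54 in mOPC 1FA (log2 change 2.04 with an SE of 0.177, limma adjusted p = 2.97e-05). With Osbpl5 it made 70, 63 and 61 and 71, 74 and 76 (0.94 ± 0.15, limma adjusted p = 0.000992). With Shank2, a synaptic scaffold gene outside the imprinted genes, it made 221, 168 and 178 and 77, 93 and 58, a change of -0.57 that did not pass (limma adjusted p = 0.0535). With Ins2, an insulin gene, it made 73, 31 and 65 and 33, 48 and 48 (0.44, limma adjusted p = 0.296). These folds depend on the TMM scaling. Scaling to the library total moved the median over all pairs from -0.464 to -0.865. How it changes the calls of single pairs of the lists is not reported. RNA of Cobl, an actin nucleator gene, made 203, 140 and 185 with the imprinted gene Grb10 in mESC 1FA and 2, 1 and 5 in mOPC 1FA. This pair passed the minimum through mESC 1FA alone, so no p is given.

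Of 236 pairs with a listed long noncoding RNA as the RNA, 118 were higher and 55 lower in mOPC 1FA (median 1.06), against 24.2% higher and 39.8% lower of all pairs. Of the 182 listed in both groups, 114 were higher and 5 lower. Pairs of the same RNA are not independent here either, so these counts can reflect the level of few RNAs. Where such a gene was contacted, 3 were higher and 22 lower of 40 (median -2.51), of which 20 were listed at 0 in mOPC 1FA. Of the 20 listed in both groups 3 were higher and 2 lower, so the lower direction rests on pairs where the filter set it. The share called is also near the 64.0% of all pairs and is not a result about the list. Pvt1 RNA, transcribed next to the oncogene Myc, made 23, 25 and 37 contacts with Myc in mESC 1FA and 49, 53 and 67 in mOPC 1FA (1.75 ± 0.229, limma adjusted p = 0.000346). Malat1 to Nrxn2 had 56, 36 and 28 against 120, 97 and 93 (2.16), and Lncpint to Mkln1 93, 48 and 67 against 153, 112 and 96 (1.57). Lncenc1 to Arhgef28 (214, 200 and 214) was found in mESC 1FA and listed at 0 in mOPC 1FA. Hox clusters and their neighbours had 10 pairs higher and 0 lower of 22 as RNA, and 7 higher and 17 lower of 32 as contacted genes, 45.5% and 75% called. In the leading pairs with a gene of this list as RNA, that gene was Skap2, a neighbour and not a Hox gene. Of the 32 contacted-gene pairs 4 were at 0 in mESC 1FA and 10 in mOPC 1FA, and of the 18 listed in both 3 were higher and 7 lower. Immediate early and growth response genes had 11 higher and 32 lower of 43 as RNA, and 8 higher and 3 lower of 16 as contacted genes, the latter 68.8% called and so near the 64.0% of all pairs. Of the 43, only 3 were listed in both groups. RNA of Spry4, an inhibitor of growth factor signalling, made 410, 376 and 429 contacts with Arhgap26 in mESC 1FA and 15, 14 and 36 in mOPC 1FA, whereas Babam2 RNA on Fosl2, a subunit of AP-1, rose from 34, 34 and 26 to 162, 184 and 141 (3.11 ± 0.208, limma adjusted p = 6.31e-06).

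Measured per interaction of the same RNA, fewer pairs differed between the cell types. Of 21674 pairs tested, 2487 (11.5%) were higher and 5336 (24.6%) lower in mOPC 1FA by limma, against 23.0% and 23.2% of all combinations. With each RNA gene thinned to equal numbers, 696 of 11550 pairs (6.03%) were higher and 1447 (12.5%) lower, against 12.8% and 11.8% of all combinations. Unthinned, 556 pairs were at 0 in mESC 1FA and 2937 at 0 in mOPC 1FA, and of the 18181 listed in both 11% were higher and 14.1% lower. RNA of Ank, a pyrophosphate transporter, had 621 listed interactions per mOPC 1FA library and 130.3 per mESC 1FA library, and made 64, 61 and 65 contacts with Fbxl7 in mOPC 1FA and 0 in mESC 1FA. Prkca RNA (protein kinase C alpha) made 51, 62 and 62 with Pitpnc1 and Rin2 RNA 106, 132 and 124 with Slc24a3, both at 0 in mESC 1FA. In the other direction Phtf2 to Magi2 (135, 126 and 178), Prmt3 to Nell1 (118, 107 and 140) and G3bp1 to Gm12239 (123, 99 and 134) were at 0 in mOPC 1FA, though these RNAs still had 234, 361 and 298 listed interactions per library there. The filter set the direction of these 6 pairs, so no p is given for them.

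The gene lists looked different on this scale, where each number is divided by the listed interactions of the same RNA. Whether a combination is listed at all also depends on the total interactions of the RNA, so the division does not fully remove its level. Of 72 tested pairs with RNA of a pluripotency gene, 22 were higher and 21 lower in mOPC 1FA (median 0.27, against -0.12 over all pairs). Of 72 with RNA of a progenitor gene, 10 were higher and 15 lower (median 0.28). For the long noncoding RNAs, 8 were higher and 111 lower of 188 (median -1.34). RNA of immediate early genes had 0 higher and 20 lower of 32 (median -1.17). Only 3 pairs with their RNA were listed in both groups on log2 CPM, so the filter set the direction of nearly all of these. RNA of imprinted-cluster genes had 5 higher and 18 lower of 77 (median -0.20). For RNA of Hox clusters and their neighbours 6 of 19 were higher and 0 lower (median 0.39). Over all pairs 36.1% were called in either direction, and the share for RNA of progenitor genes lies near it and is not a result about the list. Of the 5336 lower calls over all pairs 2744 were listed at 0 in mOPC 1FA, where the filter set the direction. The lists were not split in this way on this scale. With each RNA gene thinned to equal numbers, 18.6% of all pairs were called. The long noncoding RNAs then had 2 higher and 39 lower of 98 (median -0.79), the imprinted-cluster genes 2 and 8 of 65, and the pluripotency genes 1 and 2 of 14. The progenitor genes had 1 and 2 of 28, and the Hox clusters and their neighbours 3 and 0 of 9. Of the immediate early genes 1 pair was left to test, which did not pass.

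In 7 pairs of genes the contact was listed mainly one way in mESC 1FA and mainly the other way in mOPC 1FA. These were picked after their values were seen, as pairs with a mean of 50 or more in one direction in each cell type and under 10% of that in the other cell type, and are given without a test. Plekha7, a junction protein gene, supplied the RNA on Sox6 in mESC 1FA. In mOPC 1FA Sox6, a transcription factor of the progenitor list, supplied the RNA on Plekha7 (367, 350 and 374, against 0 in mESC 1FA). Apaf1 RNA was found on Anks1b 73, 65 and 109 times in mESC 1FA and 1, 4 and 2 times in mOPC 1FA, and Anks1b RNA on Apaf1 4, 10 and 8 times and 340, 322 and 269 times. Ntn1 RNA was found on Gas7 332, 228 and 255 times in mESC 1FA and 18, 15 and 21 times in mOPC 1FA, and the reverse 4, 4 and 1 times and 73, 85 and 63 times. The other 4 were Adipor2 with Cacna1c, Phtf2 with Magi2, Dnajc6 with Pde4b and Col4a1 with Myo16.

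Few pairs differed between mESC 1FA and mESC 2FA, whose fixation and DNase I digestion cannot be told apart. Of 27225 pairs tested, 78 (0.287%) were higher and 1035 (3.80%) lower in mESC 2FA by limma, against 1.33% and 5.18% of all combinations. The median log2 fold change was -0.15 over the pairs and -0.06 over all combinations. Lower calls were more frequent with a wider gap between the genes, 1.90% within 100 kb, 3.23% at 100 to 300 kb and 5.78% at 300 to 1000 kb. Among the 26784 pairs listed in both groups the shares were 1.5%, 2.00% and 3.30%, and the difference between the classes was not tested. No pair met the naming rule for a rise. Pgs1 to Rbfox3 fell from 53, 39 and 62 to 5, 10 and 12 (-2.34 ± 0.321 SE, limma adjusted p = 0.000224). Ranbp9 to Phactr1 fell from 65, 44 and 73 to 23, 15 and 16 (-1.55 ± 0.251, limma adjusted p = 0.00107) and Ski to Plch2 from 56, 57 and 65 to 30, 22 and 20 (-1.14 ± 0.226, limma adjusted p = 0.00568). Mthfsd to the overlapping Gm20388 fell by 1.35. Slc6a6 to Prickle2 had 66, 65 and 63 against 35, 16 and 29 (-1.17 ± 0.246, limma adjusted p = 0.00914), a call that was lost without mESC 1FA replicate 1 (adjusted p = 0.0932) or replicate 2 (adjusted p = 0.0648). The count of calls rests on single libraries too, and was 561 without mESC 1FA replicate 1, 633 without replicate 3 and 2028 without mESC 2FA replicate 1.

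Under actinomycin D, many of the pairs tested were listed at 0 in these small libraries, more of them where the genes lay far apart. As deposited, 20266 of 26860 pairs (75.5%) were lower in mESC ActD4 by limma, against 62.7% of all combinations. In simulated libraries of such unequal totals this fit called many unchanged pairs, so nothing is read from that count. When all libraries were thinned to equal totals, 2509 pairs could be tested. Of these 222 (8.85%) were higher and 784 (31.2%) lower, against 25.3% and 13.6% of all combinations. The median log2 fold change was -0.14 over the pairs and 0.75 over all combinations. By gap, 24.7% of pairs were lower within 100 kb (median 0.10), 29.2% at 100 to 300 kb (-0.12) and 46.3% at 300 to 1000 kb (-1.06). This order came from the pairs listed at 0 in mESC ActD4, which passed the minimum through mESC 1FA alone and made up 14.7%, 22% and 39.9% of the classes. Among the 1928 pairs listed in both groups 11.8%, 9.32% and 10.7% were lower in the 3 classes, with no such order, and 11.5% were higher and 10.6% lower in all (median 0.38). The difference between the classes was not tested. All counts and folds for this comparison below are from the thinned libraries, and contacts per library are as listed.

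**Figure D5:**
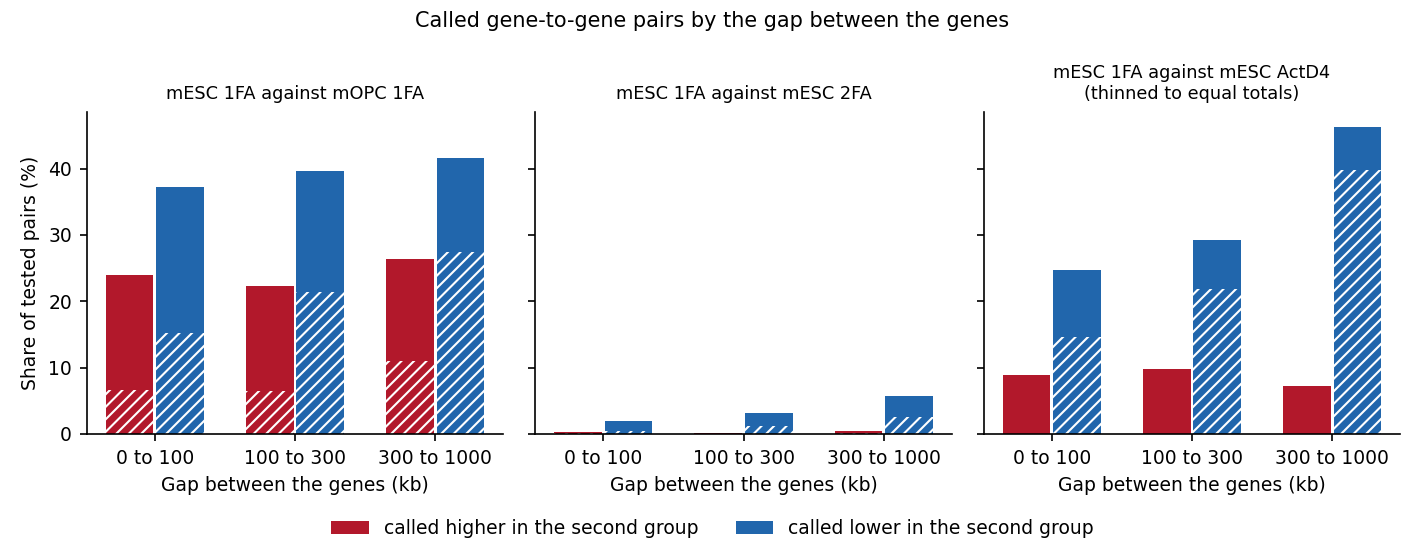
Percent of tested pairs called higher (red bars) or lower (blue bars) in the second group by limma, for 3 classes of the gap between the genes (in kb) and 3 comparisons with mESC 1FA. The hatched part of a bar is pairs listed at 0 in every library of one group, whose direction the filter set. The rest can still hold pairs that passed the minimum through 1 group alone. In mESC ActD4, after thinning to equal totals, the lower calls go from 24.7% to 46.3% with the gap, while the unhatched part, from pairs listed in both groups, becomes smaller.

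E2f3, a cell cycle transcription factor gene, to Cdkal1 had 305, 230 and 306 contacts in mESC 1FA and 0 in both mESC ActD4 libraries. Ntn1 to Gas7 (332, 228 and 255) and Zfp532 to Nedd4l (222, 272 and 287) were also listed at 0, as were Slc7a5 and Zcchc14 to the overlapping Gm20388. The filter set the direction of these 5 pairs. Other pairs took a larger share of the ActD4 libraries. Gli2 to Tfcp2l1 had 77, 65 and 70 contacts in mESC 1FA and 63 and 34 in mESC ActD4 (1.91, limma adjusted p = 0.0111). Hspg2, which encodes perlecan, to Usp48 had 59, 50 and 53 and 33 and 34 (2.3, limma adjusted p = 0.00279). Nsmce2, a SUMO ligase gene, to Mtss1 had 90, 81 and 83 and 51 and 34 (1.99, limma adjusted p = 0.00121). Sipa1l3 to Ryr1 and Atp11a to Mcf2l rose by 2.06 and 2.03. These rises and falls, and those relative to the RNA below, were picked as extremes of the fit on numbers as listed. The p after thinning comes from the same counts and is no independent support.

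The leading pairs of mESC ActD4, overlapping genes left out, included Exoc4 to Chchd3 (128 and 80, against 322, 349 and 505 in mESC 1FA) and Gli2 to Clasp1 (121 and 77, against 368, 277 and 348). All 134 pairs of 50 or more contacts over the mESC ActD4 libraries had 50 or more over those of mESC 1FA. Ankrd11 (614 contacts per library), Rptor (355), Tead1 (332), Msi2 (326) and Gli2 (284) were the leading RNA genes.

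Measured per interaction of the same RNA and with each RNA gene thinned to equal numbers, 174 of 2254 pairs (7.72%) were higher and 500 (22.2%) lower in mESC ActD4, against 24.9% and 16.4% of all combinations. The median was 0.07 over the pairs and 0.51 over all combinations. Of the lower calls 324 were listed at 0 in mESC ActD4, and of the 1930 pairs listed in both groups 9.02% were higher and 9.12% lower. Kazn to 6330411D24Rik (238, 171 and 189 in mESC 1FA), Mtcl1 to Ptprm (195, 125 and 189) and Sipa1l1 to Rgs6 (243, 182 and 265) were listed at 0, a direction set by the filter, while their RNAs kept 370.5, 408 and 288 interactions per library. Nsmce2 to Mtss1 (2.09, limma adjusted p = 0.00193) and Arl15 to Snx18 (1.74, limma adjusted p = 0.00708) were higher. Ntn1 to Ndel1, with 63, 47 and 54 against 10 and 11, was called only without thinning (0.67 after it, limma adjusted p = 0.313).

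Few pairs of the lists could be tested under actinomycin D. With a pluripotency gene on either side 8 of 49 were higher and 13 lower, against 8.85% and 31.2% of all pairs. Calls in either direction were about as frequent as the 40.1% of all pairs, so this is not a result about the list. Over all pairs tested 23.2% were at 0 in mESC ActD4, where the filter set the direction, and the lists were not split in this way. Jarid2 to Atxn1 went from 247, 216 and 262 to 0 and 0, whereas Jarid2 to Dtnbp1 had 81 and 47 left (0.53, limma adjusted p = 0.0509). Of imprinted-cluster pairs 2 of 18 were higher and 9 lower. Cobl to Grb10 was among the higher ones, with 53 and 32 contacts (1.16 ± 0.231 SE, limma adjusted p = 0.0111). Of long noncoding RNA pairs 1 of 18 was higher and 10 lower, and of progenitor gene pairs 0 of 12 and 10. Pairs of Hox clusters and their neighbours had 2 lower of 6 and immediate early pairs 2 of 4, with 0 higher in either. The former 2 were Snx10 to Skap2 and Nfe2l1 to Skap1, which hold no Hox gene. Cbx5 to Hoxc5 and Skap2 to Hoxa3 did not pass (limma adjusted p = 0.169 and 0.220).

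Where proteins were removed before ligation, almost no contact with a neighbouring gene was listed. Of 26597 pairs tested in mESC 26552 were lower in mESC NPM by limma, against 82.6% of all combinations, and of 15470 tested in mOPC 15441 were lower in mOPC NPM, against 75.2%. All of the former and almost all of the latter passed the minimum through 1FA alone, so that the filter set their direction and nothing is read from these counts. In mESC the leading pairs Smyd3 to Kif26b, Kat6b to Adk, Tead1 to Parva and Ntn1 to Stx8 were listed at 0 in both NPM libraries. Their RNAs still had 808, 824, 907 and 903 listed interactions per NPM library. Ankrd11 to Gm20388 had 1 and 0 contacts in mESC NPM. In mOPC, 2610035D17Rik to Slc39a11, 5031425E22Rik to Srpk2 (684, 675 and 800 in mOPC 1FA) and Sh3d19 to Gm37240 were listed at 0 in NPM, with 5755, 3675 and 968 interactions of these RNAs per NPM library.

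The 6 contacts of mESC NPM fell in 6 pairs of 1 contact each, among them Mtss1 to Ndufb9 and Msi2 to C030037D09Rik. The contacts left in mOPC NPM lay almost wholly on 1 chromosome. Chromosome 5 held 93.1% and 90.6% of them, against 11.6% of all interactions of these libraries. Of 74 pairs, 43 lay on chromosome 5, 41 of them ending before 45 Mb, and the 31 elsewhere had 1 contact each. The 27 pairs found in both libraries were all on chromosome 5. Of the 74 pairs 69 were also listed in mOPC 1FA and 11 joined overlapping genes.

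The pairs with most contacts in mOPC NPM joined the neighbours of Babam2 and Lhfpl3. Babam2 to the phospholipase gene Plb1 had 19 and 21 contacts (388, 484 and 317 in mOPC 1FA), and Babam2 to Fosl2 9 and 6. Lhfpl3 RNA was found on the splicing kinase gene Srpk2 19 and 18 times, on 5031425E22Rik 21 and 10 times, on the histone-binding gene Kmt2e 10 and 15 times, on Pus7 16 and 8 times and on Fam126a 11 and 8 times. RNA of 5031425E22Rik was found on Lhfpl3 11 and 11 times. Order in NPM did not follow order in mOPC 1FA. Srpk2 RNA on Lhfpl3 (418, 443 and 447 in mOPC 1FA) was listed at 0, and Lhfpl3 RNA on Srpk2 (205, 184 and 170) was not. The pair of Slc5a6 RNA with the potassium channel gene Kcnk3 was listed 5 times and 1 time in mOPC NPM and at 0 in all other groups.

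The contacts left in mOPC NPM were far apart, with a median distance of 492 kb, 75.7% ± 2.81 of them beyond 300 kb and 74.3% ± 1.72 downstream of the RNA tag. Long noncoding RNAs made 9.57% and 11.1% of them and starts of contacted genes held 5.32% and 7.60%. All 10 pairs that could be tested between mESC NPM and mOPC NPM passed the minimum through mOPC NPM alone, so that the filter set their direction and their calls are no result (35.9% of all combinations were called higher). Over both cell types, the 4 composition measures gave an exact p from 0.310 to 0.900 between 1FA and NPM, with differences of -6.98 points beyond 300 kb, 1.47 downstream, 1.86 by long noncoding RNA and 2.04 near a start. Between the cell types, the shares beyond 300 kb, downstream and by long noncoding RNA were higher in mOPC by 31.1, 20.6 and 6.72 points (exact p = 0.0167 for each, the smallest possible; 0.0667 after adjustment over 12 tests). These differences rest on the 3 contacts in each mESC NPM library, and for the share near a start the difference was -4.56 points (exact p = 0.983).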

How the data were processed

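The deposited tables, 1 per library, list RNA–DNA interactions, each with the position of the centre of its RNA tag and of its DNA tag in bp on mm10 and the annotation of both. Per the methods, the authors aligned tags with BWA 0.7.15-r1140, kept uniquely placed ones, and assigned RNA tags to GENCODE genes by strand and DNA tags to 25-kb bins. They listed the combinations that passed a one-sided binomial test. The paper gives 1 significant set per condition, so the test was taken here to be on pooled replicates. Combinations that did not pass are absent, so a pair listed at 0 is not shown to be missing and no interval for counting error is given. Sequencing depths were not used here. Listed totals ran from 251802 to 2832717 per library. RNA and DNA entries and a second sequencing run of 1 library were joined, and the library was the replicate.

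Shares per library were compared by exact permutation tests. Numbers of contacts per RNA gene, contacted gene and distance class were fitted with limma 3.58.1 (R 4.3.3) on log2 CPM with own TMM scaling, a prior count of 0.5, and a minimum of 15 in all and of 5 in as many libraries as the smaller group has, for all combinations together, with Benjamini-Hochberg adjustment at 0.05. A second fit took each number relative to the interactions of the same RNA (at least 50 in every library compared). Python 3.11.15 was used for the rest, and the fits were tested on simulated data, where the fit of mESC ActD4 as listed called many unchanged pairs and its thinned fit few. Named pairs were the 5 with most contacts per group, pairs of overlapping genes left out and each gene named once per role, and per comparison the 5 largest rises and falls (3 relative to the RNA) among called pairs with a mean of 50 or more in one group and groups that do not overlap, overlapping genes included and each RNA gene once. The members and gene lists were chosen with earlier results of these data known. Alternatives covered scaling, filters, the prior count, the replicate block and single libraries left out. Thinning to equal totals was added after the data were seen.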

Additional observations from a re-analysis of the deposited data

Results flagged for a closer look

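The change of the share of contacts with other genes from 1FA to NPM differed between the cell types. On the log2 scale the share fell by 15.2 in mESC and by 10.1 in mOPC, a difference of 5.09 (exact permutation of the cell type labels within each condition, p = 0.0167, the smallest that 120 splits allow). In percentage points it fell by 21.7 and by 15.9. With NPM shares near 0, that difference of 5.83 points (exact p = 0.0167) restates the 5.82 points between mESC 1FA and mOPC 1FA (exact p = 0.100) and is no separate evidence. The permutation also mixes any difference in level between the cell types. Both NPM means rest on few contacts, 3 in each mESC NPM library and 188 and 171 in the mOPC NPM libraries, and most of the latter lie on chromosome 5.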

How the results depend on the processing

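Of 255 alternatives for the 20 planned shares, 243 kept the direction and the side of the threshold, as did all 80 for the 8 compositions added after the data were seen. For shares compared between single groups, which include all 8 added ones, no p below the threshold was attainable. Their side of the threshold could thus not change, and only their direction was put to a test. With the replicate block the share of contacts fell by 18.9 points from 1FA to NPM (exact permutation p = 0.125), and the differences between the cell types were 25.5 points beyond 300 kb, 16.5 downstream and 6.00 by long noncoding RNA, none past the threshold. With each combination of RNA gene and bin counted once, the difference between the cell types was 19.4 points beyond 300 kb and 0.00905 near a start, and that between 1FA and NPM was -3.69 downstream and -5.70 near a start. Without the 10 RNA genes with most contacts, the difference downstream was 4.48. Leaving out single libraries gave -15.3 to 1.35 points beyond 300 kb and -6.29 to 10.4 near a start from 1FA to NPM, and -12.9 to 3.78 near a start between the cell types. The changes of sign (1.35, -6.29 and 3.78) came without mESC NPM replicate 2, and the cause was not tested.

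Counts of called pairs follow the number tested. Without a filter they were 47032 between the cell types, 14703 for mESC 2FA, 52441 for mESC ActD4, 58677 for mESC NPM, 36537 for mOPC NPM and 24 between NPM groups, and with a minimum of 20 they were 4825, 50, 4593, 6407 and 3491, with no NPM pair left to test. After thinning they were 560 for mESC 2FA, 1006 for mESC ActD4, 3643 for mESC NPM, 8931 for mOPC NPM and 2 between NPM groups. Relative to the RNA they were 19129 without a filter, 2272 with a minimum of 20 and 2143 after thinning for mOPC 1FA. For mESC ActD4 they were 11723, 3056 and 674, and 5838 with a prior count of 2 and 7000 against the interactions outside the RNA's own gene. In 3 of these (11723, 5838 and 7000) higher calls outnumbered lower ones, 7042 to 4681, 4463 to 1375 and 3695 to 3305. Single libraries left out gave 561 to 2028 calls for mESC 2FA, 13908 to 24642 for mESC ActD4 (14135 without mESC 1FA replicate 1 and 13908 without replicate 3), 18390 to 27473 for mESC NPM, 10494 to 15996 for mOPC NPM, 3 to 10 between NPM groups, and relative to the RNA 6349 to 8428 for mOPC 1FA and 5921 to 7959 for mESC ActD4. Of 620 alternatives for 47 named pairs, 617 kept the call. Pairs given only as members of a gene list were not among these.

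Samples of one number were not shown to be paired. For mESC 1FA and mESC 2FA the deviations of same-numbered libraries correlated at 0.0888, 0.0856 and 0.0911, and each library correlated best with its own number, a hint from the data only. With the replicate block the calls were 17552 for mOPC 1FA, 1457 for mESC 2FA, 21577 for mESC ActD4, 26578 for mESC NPM, 15458 for mOPC NPM, 10 between NPM groups, and relative to the RNA 7786 and 5443. The alternative of distances between tag starts was not run, as only centre positions were used here. The small listed totals of mESC ActD4 and the NPM libraries limit what can be listed at all.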
